A study of Brassica rapa subsp. pekinensis with 6 samples.

Results

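The genes described here are those named for leaf senescence in Chinese cabbage (Brassica rapa subsp. pekinensis). They are the listed genes whose best protein hit is called senescence-specific, senescence-associated or senescence-related, or is SAG12, leaving out NAC factors and STAY-GREEN proteins. There were 7 such genes among 13225 in the authors' deposited table, and no other description in it held the word senescence. Doubled haploid plants, whose haploid genome has been doubled, were compared with autotetraploid plants, which carry 4 copies of the genome. Both kinds of plant came from the single doubled haploid line 'FT' and were grown alike, so the data stand for 1 genotype. Mature leaves were taken on the main stem, lower than its first branch, once the plants bolted. The labels give this stage but no age, and they do not say how many plants went into a library. Each group had 3 libraries, called biological replicates by the submitters.

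Senescence is the ordered last phase of a leaf's life, in which chloroplasts are dismantled, proteins are degraded and nitrogen is moved to growing organs and seeds. SAG12 of Arabidopsis is a papain-type cysteine protease found in vacuoles of senescing leaf cells, and its transcript is a widely used marker because it is scarcely detectable in young green leaves. SAG39 is a related protease of rice. SAG101 of Arabidopsis is a lipase-like protein that was isolated as a senescence gene and also works with EDS1 in immune signalling. DIN1 was found in radish as a gene induced by darkness, and its Arabidopsis counterpart SEN1 is induced in darkened and ageing leaves.

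For each gene the table gives 1 mean of normalised read counts per group, and it holds only genes with an adjusted p under 0.05 in the authors' test. That test therefore chose the 7 genes, and their fold changes are given as a description. The authors called 37.8% of 34980 genes, 18.9% as higher and 18.9% as lower in autotetraploid leaves. How many senescence-named genes the authors tested without calling them was not analysed here, so the count of 7 cannot be read against that share. The depth of each library is unknown, as read totals are not given in the sources used here. From steps of 1 read, size factors were inferred and ran from 0.926 to 1.01 in autotetraploid and from 0.917 to 1.12 in doubled haploid libraries. Counts are not adjusted for gene length, so levels are compared between groups and not between genes.

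In autotetraploid leaves 4 of the 7 genes were lower and 3 were higher. The 4 lower genes each had a different best hit, namely SAG12, SAG39, SAG101 and DIN1. The 3 higher genes all had SAG12 as best hit. The median log2 fold change of the 7 genes was -1.07, and that of all 13225 listed genes was 0.16. The listed genes divided into 6614 higher and 6611 lower, with a gap around 0 left by the selection. Their median lies at the upper edge of this gap and describes no typical change. Of the 7 genes, 2 were at least 2-fold higher and 4 at least 2-fold lower. Of all 13225 listed genes, in either direction, 16.6% were at least 2-fold higher and 23.0% at least 2-fold lower. These are 6.27% and 8.7% of all tested genes. The 7 genes can be set beside the listed genes only, and nothing is read from the shares, because the same contrast chose them. The values are relative to the other genes of a library, and in whole leaves fewer cells that express a gene and less RNA per cell cannot be told apart.

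**Figure D1:**
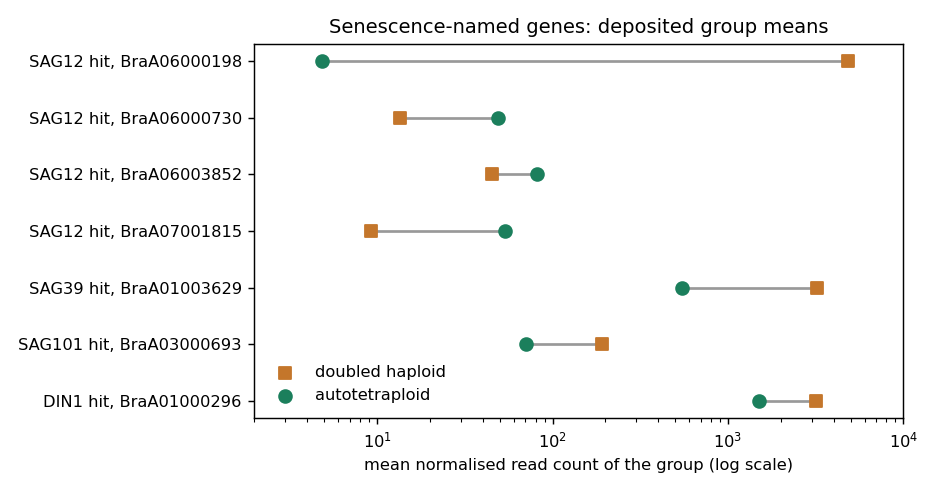
Mean normalised read count of each senescence-named gene in doubled haploid (squares) and autotetraploid leaves (circles), as deposited by the authors, on a log scale; each symbol is 1 group mean of 3 libraries, without error. The gene at the top, a SAG12 hit, runs from 4804 down to 4.86, while the next 3 SAG12 hits lie higher in autotetraploid leaves.

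The SAG12 hit evm.TU.BraA06000198 carried the largest change. The authors' deposited table gave it a mean of 4804 in doubled haploid and 4.86 in autotetraploid leaves, a log2 fold change of -9.95. No listed gene above 0 in both groups had a lower log2 fold change, and a further 104 genes were listed at 0 in autotetraploid leaves. The authors' p-value for this gene was deposited as 0.

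The autotetraploid mean of evm.TU.BraA06000198 rested on 14 reads. Its libraries held 2, 5 and 7 reads, which are normalised counts of 1.98, 5.04 and 7.56 (mean 4.86 ± 2.80 SD, n = 3). All 3 autotetraploid libraries were thus near the lower end of counting, and none was at 0. The exact 95% Poisson interval of the mean was 2.66 to 8.15, which put the ratio of 989-fold between 589-fold and 1809-fold, with counting error of the autotetraploid reads only. Leaving out each autotetraploid library in turn moved the ratio between 763-fold and 1369-fold. The doubled haploid mean was too high for its libraries to be worked out, so its spread was not analysed here.

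When the mean of the higher group had to reach 100, the nearest in log2 fold change was a probable xyloglucan endotransglucosylase/hydrolase gene of the cell wall (Novel00014), at -9.44 in the authors' deposited table. The next, encoding a class II small heat shock protein (evm.TU.BraA03000538), was at -8.41 in the authors' deposited table. The third was lipoxygenase 3, an enzyme of the route to jasmonate (evm.TU.BraA08003342), at -7.21 in the authors' deposited table. This likeness is a difference in log2 fold change over 2 group means and says nothing of the libraries. Of 1267 listed genes whose higher mean lay within 2-fold of that of evm.TU.BraA06000198, 0.0789% (the gene itself) changed as much, and their median change was 1.75-fold.

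**Figure D2:**
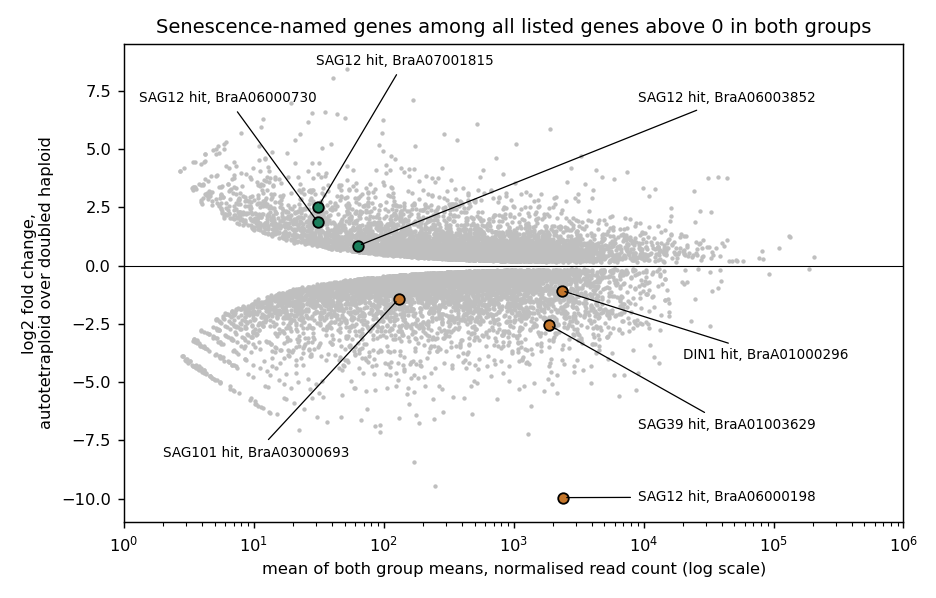
Log2 fold change, autotetraploid over doubled haploid, against the mean of both group means (log scale) for all listed genes above 0 in both groups (grey) and the 7 senescence-named genes (green higher, orange lower in autotetraploid leaves). The empty band around 0 is there because only genes called by the authors are listed; the SAG12 hit BraA06000198 lies lowest of all, at -9.95.

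The other 3 SAG12 hits were all higher in autotetraploid leaves. evm.TU.BraA07001815 had normalised counts of 50.4, 53.4 and 56.1 in the autotetraploid libraries (mean 53.3 ± 2.89 SD, n = 3). In the doubled haploid libraries it had 9.86, 9.25 and 8.72 (mean 9.27 ± 0.570 SD, n = 3). Each autotetraploid library was far above each doubled haploid one, and the log2 fold change in the authors' deposited table was 2.52.

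evm.TU.BraA06000730 had normalised counts of 48.41, 48.40 and 49.7 in the autotetraploid libraries (mean 48.8 ± 0.732 SD, n = 3). Its doubled haploid libraries had 12.5, 13.9 and 14.2 (mean 13.5 ± 0.864 SD, n = 3). The libraries within each group were close together and the groups did not overlap. The log2 fold change in the authors' deposited table was 1.85. From its 143 autotetraploid reads, counting alone would allow a mean of 41.2 to 57.5 (exact 95% Poisson interval). This interval is for the mean of 3 libraries, and counting would allow single libraries a wider range still. The single libraries nevertheless spread less than the interval.

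evm.TU.BraA06003852 had the smallest change of the 7 genes. Its autotetraploid libraries had normalised counts of 73.1, 82.7 and 88.5 (mean 81.4 ± 7.79 SD, n = 3). Its doubled haploid libraries had 35.0, 63.8 and 37.1 (mean 45.3 ± 16.1 SD, n = 3). A single doubled haploid library, with 69 reads, stood above the other two and came within 9.31 of the lowest autotetraploid library. Without it the doubled haploid mean was 36.0. The log2 fold change in the authors' deposited table was 0.85. Its adjusted p of 0.00260 in the authors' deposited table was the highest of the 7 and thus the nearest to the limit of 0.05. Of 2284 listed genes with a higher mean within 2-fold of its own, 66.5% changed at least as much.

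**Figure D3:**
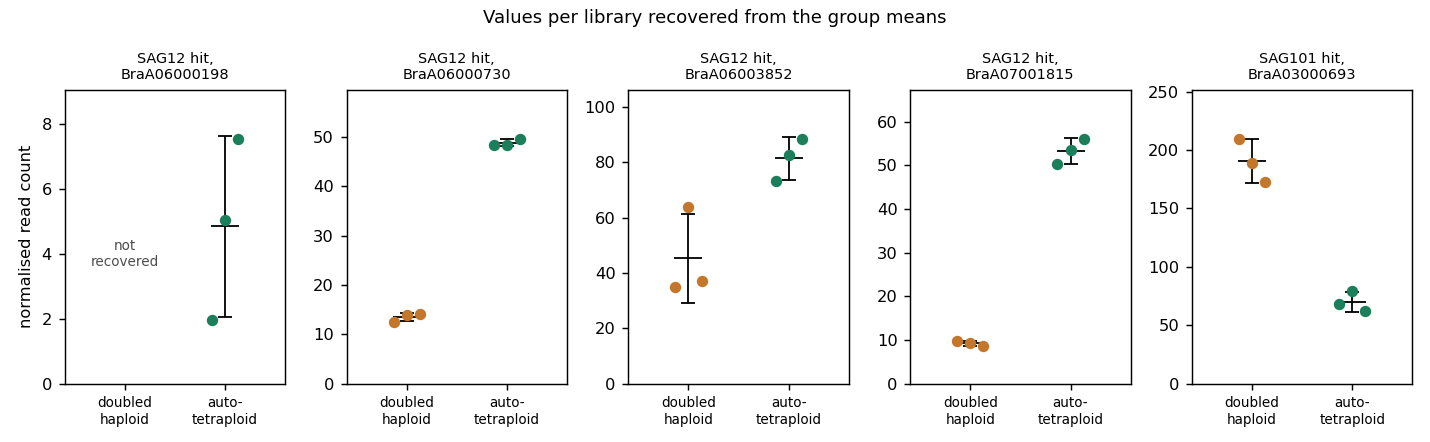
Normalised read counts of single libraries (points) with mean and SD (bars, n = 3) for the 5 senescence-named genes with recovered reads; each panel has its own axis from 0, and the order of points within a group has no meaning. Groups do not overlap in the 4 genes recovered in both, and for BraA06003852 the doubled haploid library at 63.8 lies closest to the autotetraploid ones.

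Reads were recovered in both groups for 4 of the 7 genes, and in all 4 the libraries of the groups did not overlap. The same held for 99.2% of 3652 listed genes with recovered reads, since the table was selected for differences, so nothing is read from it. In limma on log2(normalised count + 1), the log2 difference of autotetraploid from doubled haploid leaves was 2.40 ± 0.14 (SE) for evm.TU.BraA07001815 and 1.78 ± 0.14 for evm.TU.BraA06000730. It was 0.88 ± 0.25 for evm.TU.BraA06003852, whose standard error was the largest of these genes. No p is given for these differences, because the genes were chosen on the same libraries. For the same reason the standard errors, whose spread limma shared over the 3652 genes, may be too small. Those of evm.TU.BraA07001815 and evm.TU.BraA06000730 are smaller than the counting error of their reads, 29 and 42 in the doubled haploid libraries. They therefore understate the uncertainty of these differences. From the 29 doubled haploid reads of evm.TU.BraA07001815, counting alone would allow a mean of 6.21 to 13.3 (exact 95% Poisson interval). This interval too is for the mean, and the single libraries spread less than it, although counting would allow them a wider range.

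The 4 SAG12 hits did not match the Arabidopsis protein with equal E-values. The authors' deposited table gives an E-value of 0 for evm.TU.BraA06000198, the closest match the scale allows. It gives 1.61e-113 for evm.TU.BraA06003852, 6.27e-113 for evm.TU.BraA06000730 and 3.47e-102 for evm.TU.BraA07001815. By E-value, the gene that fell had the strongest match to SAG12. The 3 that rose had weaker ones, for which SAG12 is only the nearest entry in the protein database. Identity and aligned length were not examined, so strong and weak refer to the E-value only. Over the 4 genes the authors' means summed to 4872 in doubled haploid and 188 in autotetraploid leaves. The sum without evm.TU.BraA06000198 went the opposite way, with 68.1 in doubled haploid and 184 in autotetraploid leaves. Whether reads are shared among these genes was not tested, since their sequences were not used here.

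The SAG39 hit and the SAG101 and DIN1 hits were lower in autotetraploid leaves. The SAG39 hit evm.TU.BraA01003629, a papain-type protease whose nearest entry is the rice protein (E-value 1.75e-102 in the authors' deposited table), had a mean of 3212 in doubled haploid and 548 in autotetraploid leaves. This is a fall of 5.86-fold, with a log2 fold change of -2.55 and an adjusted p of 1.05e-226 in the authors' deposited table. Of 1865 listed genes with a higher mean within 2-fold of its own, 6.97% changed at least as much, and their median change was 1.64-fold.

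The SAG101 hit evm.TU.BraA03000693 had normalised counts of 68.2, 79.7 and 62.6 in the autotetraploid libraries (mean 70.1 ± 8.69 SD, n = 3). Its doubled haploid libraries had 209.7, 188.6 and 172 (mean 190.2 ± 18.8 SD, n = 3). The lowest doubled haploid library was 92.6 above the highest autotetraploid one. The log2 fold change in the authors' deposited table was -1.44, and the limma difference on log2(normalised count + 1) was -1.43 ± 0.17 (SE). This SE too may be too small, because the genes were chosen on the same libraries.

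The DIN1 hit evm.TU.BraA01000296, most like the radish protein, had a mean of 3163 in doubled haploid and 1505 in autotetraploid leaves in the authors' deposited table. This fall of 2.10-fold had an adjusted p of 4.90e-50 in the authors' deposited table. Of 1906 listed genes with a higher mean within 2-fold of its own, 30.7% changed at least as much. For the SAG39 and DIN1 hits no library values could be recovered, so their spread between libraries was not analysed here.

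The identifiers of the 7 genes carry the chromosome codes A06 for 3 SAG12 hits, A07 for 1, A01 for the SAG39 and DIN1 hits and A03 for the SAG101 hit. The codes were not placed on a genome, and 0 of the 7 matched the RefSeq table of Brassica rapa genes. Both genes with the code A01 were lower in autotetraploid leaves, as were 72.1% of all 1284 listed A01 genes. For A03, A06 and A07 the shares of listed genes that were lower were 44.6%, 47.8% and 49.3%. The part of the A01 code in the falls of the SAG39 and DIN1 hits was not tested.

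A pair of the weaker SAG12 hits stood in blocks of identifiers that look alike, a pattern chosen after its values were seen. Within 10 identifier numbers, evm.TU.BraA06000730 and evm.TU.BraA06003852 shared 3 best hits among their listed neighbours. No shared hit was found for the other 20 of the 21 pairs of the 7 genes. In the same order of identifiers both blocks held NAC062, the splicing factor SR34A, a polyadenylate-binding protein-interacting protein 10 gene and the SAG12 hit. Each kind of gene changed in 1 direction in both blocks. Whether genes with the same best hit share reads between the blocks was not tested. The NAC062 genes evm.TU.BraA06000721 and evm.TU.BraA06003846 had log2 fold changes of -2.09 and -1.48 in the authors' deposited table. The SR34A genes evm.TU.BraA06000726 and evm.TU.BraA06003849 had -0.51 and -0.26 in the authors' deposited table. The interacting protein genes evm.TU.BraA06000727 and evm.TU.BraA06003850 rose by 1.22 and 1.21 on the log2 scale in the authors' deposited table. The gene numbered just before the first of the SAG12 hits, a CDPK-related kinase 4 gene (evm.TU.BraA06000729), rose from 8.65 to 54.1, by the authors' deposited table.

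**Figure D4:**
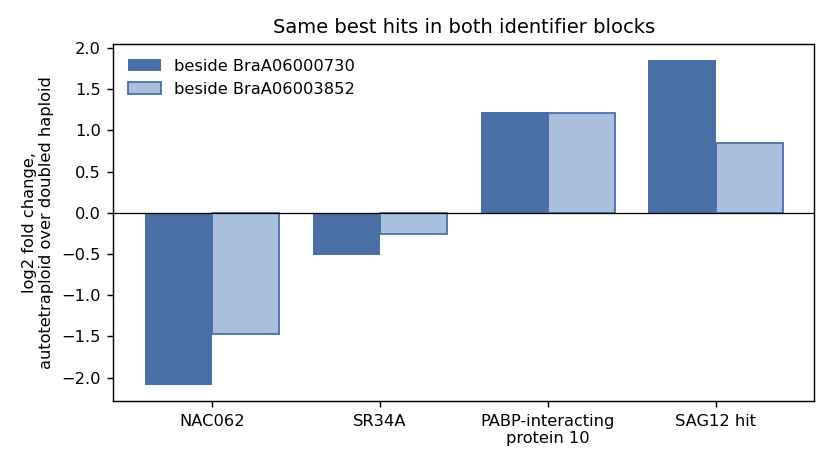
Log2 fold change, autotetraploid over doubled haploid, of 4 kinds of gene that share a best protein hit near BraA06000730 (dark bars) and near BraA06003852 (light bars), in the order of their identifier numbers; bars are the authors' values without error. NAC062 and SR34A are below 0 and the other kinds above 0 in both blocks.

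Next to the strong SAG12 hit the listed genes went different ways. Of 5 listed genes within 10 numbers of evm.TU.BraA06000198, 2 were higher and 3 lower. The nearest, a gene like the autophagy enzyme ATG7 (evm.TU.BraA06000197), had a log2 fold change of -0.81 in the authors' deposited table. The magnesium chelatase gene ChlI-2 of chlorophyll synthesis (evm.TU.BraA06000196) had 1.07 in the authors' deposited table.

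The fall of the strong SAG12 hit and the SAG39 hit was not shared by most other listed genes for papain-type cysteine proteases. Of 18 such genes 14 were higher and 4 lower in autotetraploid leaves, with a median log2 fold change of 0.92. All 5 RD19a genes and all 3 xylem cysteine proteinase genes were higher, parts of the list chosen after their values were seen. RD19a is a protease gene first known from drought-treated Arabidopsis, and its copy evm.TU.BraA08002284 rose from 2967 to 6631, by the authors' deposited table. A gene for aleurain, a vacuolar protease (evm.TU.BraA02001240), rose from 364 to 991, by the authors' deposited table. A second aleurain gene (evm.TU.BraA10002016) fell from 35489 to 29396, by the authors' deposited table. A cathepsin B gene (evm.TU.BraA09001578) rose from 8838 to 14703, by the authors' deposited table. The list also took in ATG4a, a cysteine protease of autophagy that is not papain-type. Some of these genes have consecutive identifiers and the same best hit, and whether they share reads was not tested.

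Inhibitors of cysteine proteases, which bind papain-type enzymes, were listed 4 times and were higher each time. Inhibitor 5 (evm.TU.BraA06004617) had a log2 fold change of 1.61 and inhibitor 1 (evm.TU.BraA10000602) of 0.93 in the authors' deposited table. Inhibitor 3 (evm.TU.BraA04002990) had 0.62 and inhibitor 6 (evm.TU.BraA01004219) 0.24 in the authors' deposited table. Their median log2 fold change was 0.78.

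Vacuolar processing enzymes, which mature other vacuolar proteins, and aspartic proteases were lower in 13 and higher in 7 of 20 cases, with a median of -0.68 on the log2 scale. The processing enzyme's gamma isozyme gene (evm.TU.BraA01000545) fell from 45810 to 21264, by the authors' deposited table. A gene like the aspartic protease PCS1 (evm.TU.BraA04000987) fell from 2854 to 578, by the authors' deposited table. A nepenthesin-2-like gene (evm.TU.BraA01003253) fell from 2952 to 1473, by the authors' deposited table. Autophagy genes were split into 10 higher and 7 lower, with a median of 0.29. ATG18d (evm.TU.BraA09002877) had a log2 fold change of 1.05, ATG18g (evm.TU.BraA10002909) of 0.54 and ATG8e (evm.TU.BraA07002351) of -1.20 in the authors' deposited table.

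Among 13 genes of chlorophyll breakdown 8 were lower and 5 higher, with a median log2 fold change of -0.51. STAY-GREEN proteins act in the removal of magnesium from chlorophyll. STAY-GREEN 2 (evm.TU.BraA03002933) fell from 482 to 5.11 and a STAY-GREEN 1 gene (evm.TU.BraA01001706) from 2224 to 539, by the authors' deposited table. A pheophytinase gene (evm.TU.BraA01000237), for the enzyme that cuts off the phytol chain, rose from 987 to 2092, by the authors' deposited table. Neither kind of gene moved only 1 way. Of 4 listed STAY-GREEN genes 3 were lower and 1 higher, and of 5 listed pheophytinase genes 3 were higher and 2 lower.

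Transcription factors known from leaf senescence in Arabidopsis were divided, with 13 higher and 15 lower of 28 and a median log2 fold change of -0.67. WRKY53, which promotes senescence in Arabidopsis, had 2 listed genes, and both fell. They went from 6366 to 1819 (evm.TU.BraA01001618) and from 1995 to 416 (evm.TU.BraA03005485) in the authors' deposited table. NAC083, also called VNI2, which delays senescence in Arabidopsis, had a log2 fold change of -2.76 (evm.TU.BraA03000591) in the authors' deposited table. Parts of the list chosen after their values were seen divided by name. Of 13 genes with a NAC number, 12 were lower. All 4 genes like JUNGBRUNNEN 1, a NAC factor that delays senescence in Arabidopsis, were higher, with log2 fold changes from 0.96 to 3.87. WRKY54 and WRKY70, which restrain senescence in Arabidopsis, had 3 listed genes each, and all were higher. Roles are given here for some of the factors only, so no course of senescence is read from them. Of the 11 WRKY genes in the list, 8 were higher and 3 lower. Beside WRKY53, WRKY54 and WRKY70 they were WRKY75 (evm.TU.BraA03000581, 1.40), WRKY45 (evm.TU.BraA09004519, 0.50) and WRKY22 (evm.TU.BraA09001344, -2.78), as log2 fold changes of the authors' deposited table.

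Genes for nitrogen remobilisation included 5 higher and 9 lower of 14, with a median log2 fold change of -0.47. Cytosolic glutamine synthetase packs nitrogen for export from ageing leaves, and 7 of its 8 listed genes were lower. A gene of its isozyme 1-4 (evm.TU.BraA02000716) fell from 9676 to 3544, by the authors' deposited table. Both listed genes of the chloroplast form, which recovers ammonium from photorespiration, were higher. The first of them (evm.TU.BraA04000887) rose from 5246 to 14355, by the authors' deposited table. Asparagine synthetase 2 (evm.TU.BraA06003486) rose from 182 to 1554, by the authors' deposited table. The division by enzyme form was chosen after the values were seen.

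The immune partners of SAG101 did not move one way. EDS1, a lipase-like protein, pairs with either SAG101 or the related PAD4. A gene matching EDS1B (evm.TU.BraA06000849) had a log2 fold change of -0.94 in the authors' deposited table, while 2 others (evm.TU.BraA01002109 and evm.TU.BraA01002110) had 0.87 and 0.90. The 2 PAD4 genes evm.TU.BraA09003237 and evm.TU.BraA03004905 had -0.35 and 0.46 in the authors' deposited table. The listed EDS1 and PAD4 genes changed by less than 2-fold, against 2.71-fold for the SAG101 hit.

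Lipoxygenase and phospholipase D genes, whose enzymes act on membrane lipids and their fatty acids, were higher in 8 and lower in 11 of 19 cases, with a median of -0.56 on the log2 scale. The pattern also took in 2 patatin-like genes and 1 lipoxygenase homology gene. Lipoxygenase 4 (evm.TU.BraA02002303) fell from 13637 to 535, by the authors' deposited table. Lipoxygenase 2 (evm.TU.BraA07002604) rose from 4917 to 27472, by the authors' deposited table.

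**Figure D5:**
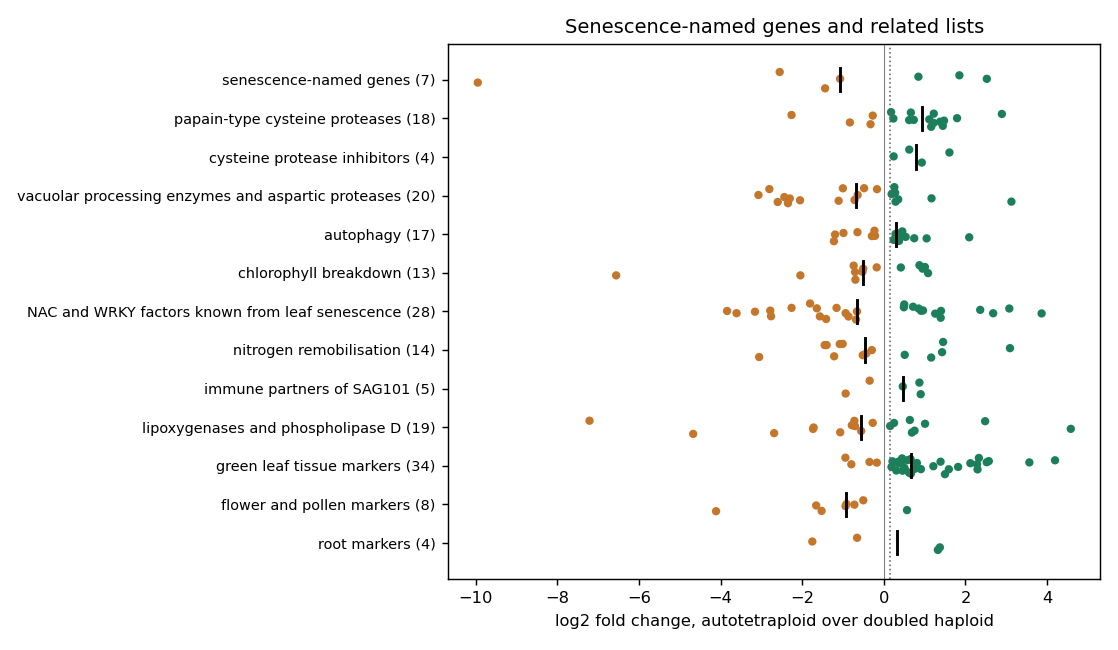
Log2 fold changes, autotetraploid over doubled haploid, of the senescence-named genes and 12 related lists, with the number of listed genes in brackets. Each point is a gene and black bars are medians. The dotted line is the median of all listed genes (0.16), which lies at the edge of the gap around 0 left by the selection. Cysteine protease inhibitors lie wholly above 0, while the senescence-named genes lie on both sides, from -9.95 to 2.52; vertical spread within a row has no meaning.

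Genes taken as tissue markers by words in the names of their best hits moved as well. Whether these genes mark the named tissue in these leaves was not tested. Of 34 listed genes for green leaf tissue, namely the Rubisco small chain and chlorophyll a-b binding proteins, 30 were higher in autotetraploid leaves, with a median log2 fold change of 0.66. Their means summed to 689720 in doubled haploid and 1081924 in autotetraploid leaves, and none was at 0 in either group. The leading genes were CP29.3 (evm.TU.BraA05003802, 1.82), a gene for the Rubisco small chain (evm.TU.BraA04001052, 2.28) and chlorophyll a-b binding protein 1 (evm.TU.BraA08002753, 1.39), as log2 fold changes of the authors' deposited table. Of 8 listed genes with flower or pollen names 7 were lower, with sums of 1872 in doubled haploid and 999 in autotetraploid leaves and none at 0 in either group. They included a pollen extensin-like gene (evm.TU.BraA08001376, -4.11), SF21 (evm.TU.BraA03000520, -1.66) and C13 (evm.TU.BraA03002821, -0.72), as log2 fold changes of the authors' deposited table. Of 4 listed genes with root names 2 were higher and 2 lower, with sums of 2528 in doubled haploid and 4431 in autotetraploid leaves and none at 0. These were a pair of root meristem growth factor 9 genes (evm.TU.BraA02004444, 1.32, and evm.TU.BraA06003509, 1.37) and the ROOT HAIR DEFECTIVE 3 homologs 2 and 1 (evm.TU.BraA06004447, -0.66, and evm.TU.BraA07004170, -1.75), as log2 fold changes of the authors' deposited table. Whether the groups differed in tissue make-up was not tested, nor was any part of it in the changes of the senescence-named genes.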

How the data were processed

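Messenger RNA of 6 leaf libraries was sequenced, and the submitters' processing notes name DESeq 1.18.0, HTSeq 0.6.1, TopHat2 2.0.12 and Bowtie2 2.2.3, with no roles. The genome build and annotation are not given in the sources used here. Per the file headers, the deposited signal columns hold read counts. By their values they are 1 mean per group of counts divided by size factors. The labels speak of FPKM, which header and values contradict. The authors' log2 column equals the log2 ratio of the means, within 5e-05. The authors also deposited a p-value and an adjusted p-value of their own test, the latter always under 0.05. The ratio of adjusted p to p gave 34980 genes tested.

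No model per library could be fitted to all genes, since the table holds group means. Each mean is a sum of whole reads over size factors, so reads per library were worked out for means up to 250. Exactly 1 combination existed for 3385 of 3385 autotetraploid values and 3280 of 3280 doubled haploid values above 0 and under 100. Up to 250 this held for 67.6% and 100.0%. The recovered libraries have no replicate number. In R 4.3.3, limma 3.58.1 was fitted to log2(normalised count + 1) of 3652 genes recovered in both groups. Its p-values are not given, because the table was selected on the same contrast. Its standard errors may be too small for the same reason. For evm.TU.BraA07001815 and evm.TU.BraA06000730 they are also smaller than counting error. Recovery and limma were tested on data simulated from genes with both group means under 100, so higher means were little covered. The doubled haploid mean of the SAG101 hit, 190.2, lies above that limit.

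The genes and the related lists were chosen with earlier results of these data known. All 7 genes are named. Of each list, the 3 genes with the smallest adjusted p are named, and all genes of lists of up to 5. A second aleurain gene, outside this rule, was named after its values were seen, to show both copies. The WRKY22, WRKY45 and WRKY75 genes were also named outside this rule, to cover the remaining listed WRKY factors. The 3 genes nearest to the largest fall in log2 fold change are named too. For list medians, a group mean of 0 was replaced by 3 reads over the group. Intervals cover counting error only (exact Poisson, 95%). Tables were handled in Python 3.11.15 with pandas 2.3.3, NumPy 2.4.6 and SciPy 1.17.1, and figures drawn with matplotlib 3.10.9. Alternatives covered a stricter p limit, minimum mean, fold, 1 gene per protein hit, Arabidopsis hits, pseudocounts and left-out libraries.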

Additional observations from a re-analysis of the deposited data

How the results depend on the processing

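The numbers of senescence-named genes that were higher and lower, 3 and 4, depended on which genes were kept. When the higher group had to reach a mean of 100, 0 were higher, and likewise 0 were higher with 1 gene per protein hit, because all 3 higher genes are weakly expressed and share the SAG12 hit with a gene of smaller p. With Arabidopsis hits only, 2 were lower, since the SAG39 and DIN1 hits are rice and radish proteins. An adjusted p limit of 0.001 and a limit of 2-fold each left 2 higher and 4 lower. With 10 added to both means the log2 fold change was -8.34 for evm.TU.BraA06000198, 1.32 for evm.TU.BraA06000730 and 1.72 for evm.TU.BraA07001815, because added counts weigh on low means. With 1 added it was 2.40 for evm.TU.BraA07001815. Leaving out each recovered library in turn, the limma difference ran from -1.52 to -1.35 for evm.TU.BraA03000693, from 1.73 to 1.81 for evm.TU.BraA06000730, from 0.73 to 1.15 for evm.TU.BraA06003852 and from 2.36 to 2.44 for evm.TU.BraA07001815. The direction of each of the 7 genes was the same with every pseudocount, as adding an equal count to both means cannot change it. That of the 4 recovered genes was the same with each library left out. It could not reverse, because their libraries did not overlap between groups. Neither result is therefore support for the directions. No paired analysis was possible because the deposited columns are group means and the recovered libraries carry no replicate number. Depth limits the 989-fold ratio of evm.TU.BraA06000198, which rests on 14 reads in autotetraploid leaves.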
